A study of Sus scrofa with 12 samples.

Results

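The genes described here had lower transcript levels in deoxyshikonin-treated than in untreated IPEC-J2 cells at 24 h. Their mean levels at 6 h differed by at most 0.4 log2 units. Transcript abundance was given as TPM, a measure scaled by gene length and library total. Members were chosen from the same values: among 11366 Ensembl genes with a mean of at least 1 TPM, the difference of log2(TPM + 1) between treated and control means had to be at most -0.8 at 24 h and between -0.4 and 0.4 at 6 h. This left 55 genes, out of 32518 identifiers in the whole table. Another 325 genes met the limit at 24 h but lay under -0.4 at 6 h, and 22 lay above 0.4 at 6 h. A symbol was available for 41 of the 55.

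IPEC-J2 is an established line of porcine intestinal epithelial cells, and deoxyshikonin is a plant naphthoquinone of the shikonin family. The 4 groups were untreated cells at 6 h, cells exposed to 5 µmol/L deoxyshikonin for 6 h, untreated cells at 24 h and cells exposed for 24 h, each with 3 libraries. The labels do not say whether control cells received a solvent, nor whether the 3 libraries of a group came from separate cultures, so p-values measure only the spread between these libraries, which may be technical. TPM values keep no sequencing depth, and the depth of the libraries is unknown. All groups are the same cell line, and no animal is involved.

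Of the 41 members with a symbol, 8 serve the supply of amino acids or the charging of tRNAs. Roles were assigned to members only, once these were known, so no share of all genes stands beside this number. Cells make serine from a glycolytic intermediate, feed it into glycine, folate and cysteine synthesis, import essential amino acids through exchangers in the plasma membrane, and attach each amino acid to its tRNA with a dedicated synthetase. Genes for these steps are known targets of ATF4, a transcription factor made when amino acids run short or when proteins misfold in the endoplasmic reticulum.

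Epithelial markers were high in all libraries. KRT8 had at least 1155 TPM and CDH1 at least 518 TPM in every library, and the 10 epithelial markers summed to 4945 to 8544 TPM, while VIL1, the brush border protein villin, stood at 0.43 to 3.6 TPM. PTPRC, the defining marker of leukocytes, had at most 0.05 TPM, although CD79A had 266 to 335 TPM. The neuronal and glial list summed to 6.35 to 12.5 TPM in controls and 45.0 to 68.7 TPM in treated cells, of which TUBB3 held nearly everything. The part of these levels in the results was not tested, and in bulk RNA fewer cells of a kind and less RNA per cell cannot be told apart.

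The choice rested on the treated-against-control differences at both times, so these differences are given as a description and are not tested on the members. The difference at 24 h had a median of -1.11 log2 units, against a median of 0.09 over the 11897 genes in the fit. It ran from -2.32 to -0.80 in the 45 members that were above 0 in some library other than the 24 h controls. With limma and Benjamini-Hochberg adjustment at 0.05, 39 of the 55 were called lower at 24 h, against 18.1% of all genes. The 3 treated libraries all lay below the 3 controls for 36 members, against 20.7% of all genes. Nothing is read from these counts, since the rule used that contrast. The word "only" in a description of this set needs care: at 6 h, 15 members were already called lower (48.7% of all genes were) and 7 higher (26.6% of all genes were), all inside the window of the rule. That balance turned with the scaling, to 9 lower and 13 higher under quantile normalization and 8 lower and 11 higher under median-of-ratios rescaling. The median change of all genes at 6 h was -0.20 in the deposited values, and median-of-ratios rescaling brought it to -0.07, so the window around 0 is not centred on the bulk of genes.

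**Figure D1:**
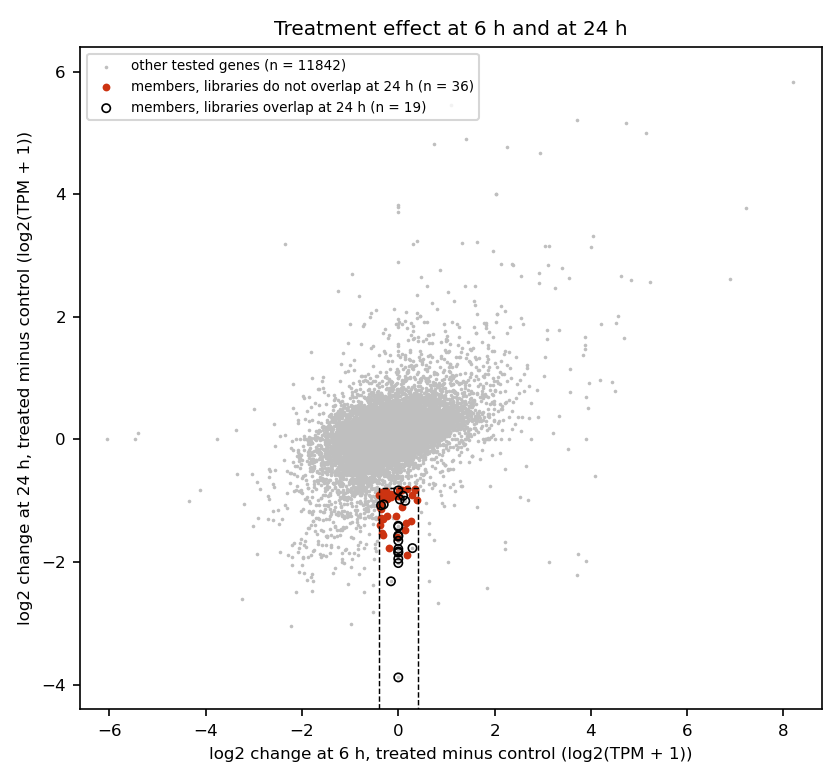
Each point is a gene, with its log2 change at 6 h on the horizontal axis and at 24 h on the vertical axis, both treated minus control on the log2(TPM + 1) scale. Filled red points are the 36 members whose libraries do not overlap at 24 h, open circles the 19 members whose libraries overlap, grey points all other genes of the fit, and the dashed lines the limits of the rule. The column of open circles at exactly 0 on the horizontal axis consists of members listed at 0 in all 6 libraries at 6 h.

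At 24 h and on the lower side at 6 h, genes just inside and just outside the limits had nearly equal values. REEP4 and ARTN lay just inside at -0.80 log2 units at 24 h, and the nearest genes outside, both without a symbol, lay at -0.79. ASTN2 was kept with -0.39 at 6 h, whereas FN1, which encodes fibronectin, was among the nearest genes left out, with -0.42 at 6 h and -1.13 at 24 h. On the other side MRPL10 was kept with 0.39 at 6 h, and WARS1, the tryptophanyl-tRNA synthetase, was left out with 0.51 at 6 h and -0.83 at 24 h.

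The set holds genes of very unequal reliability. Of the 19 members with overlapping libraries, 10 were listed at 0 in all 9 libraries other than the 24 h controls. In 9 of these 10 a single 24 h control carried the whole value, and in the other one 2 controls did. Their 5 symbols are all box H/ACA small nucleolar RNAs, which guide pseudouridylation and have near-identical copies. SNORA75 had 0, 56.53 and 0 TPM in the 24 h controls, SNORA25 had 43.82, 0 and 0 TPM, and SNORA12 had 0, 0 and 30.22 TPM. SNORA57 and SNORA62 likewise had a value in 1 control only, 26.0 and 25.1 TPM. Listed zeros of this kind can be failed estimates, so no fold change is given for them. Without these 10 the median difference at 24 h was -1.0 instead of -1.11, and 38 of the remaining 45 members were called lower.

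The other 9 members with overlap comprised 5 identifiers without a symbol and 4 genes with one. The most abundant of the 5 in 24 h controls had 49.42, 60.18 and 60.59 TPM in 24 h controls and 65.71, 19.52 and 13.76 TPM in treated cells, so that the highest of these 6 libraries was a treated one. ANKS1B, an ankyrin-repeat scaffold protein, had 61.3, 79.8 and 46.6 TPM in 24 h controls and 46.6, 29.6 and 19.4 TPM in treated cells, so that the highest treated library slightly exceeded the lowest control. IER5L and YJEFN3 stood under 7 TPM in all 12 libraries and were not called. DEFB1, the epithelial beta-defensin, was listed at 0 in all 6 libraries at 6 h and had 5.37, 1.30 and 3.03 TPM in 24 h controls against 1.95, 0.60 and 1.21 TPM in treated cells. ANKS1B and DEFB1 were called lower in spite of the overlap. The following paragraphs concern the 36 members whose libraries did not overlap. All 36 were called lower at 24 h, their median difference was -0.98 log2 units, and 32 of them had a symbol. At 6 h, 15 of the 36 were already called lower (48.7% of all genes) and 7 higher (26.6% of all genes), and 14 were not called.

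The largest group of members by role supplies amino acids and charges tRNAs. It held 8 genes, and none of them overlapped between treated and control libraries at 24 h. PHGDH, the first enzyme of serine synthesis, had 5.27, 5.6 and 5.2 TPM in 6 h controls and 5.62, 4.49 and 5.41 TPM in 6 h treated cells. By 24 h the controls stood at 35.79, 33.91 and 34.8 TPM and the treated cells at 16.95, 11.45 and 14.39 TPM. The groups were thus interleaved at 6 h and wide apart at 24 h, when the control mean was 2.44 times the treated mean. The control mean was 6.50 times its own level at 6 h, and the treated mean 2.76 times.

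PCK2, the mitochondrial phosphoenolpyruvate carboxykinase, had 48.55, 50.23 and 52.5 TPM in 6 h controls and 56.91, 50.75 and 58.62 TPM in 6 h treated cells. At 24 h it reached 174.7, 158.2 and 166.0 TPM without treatment but 67.55, 55.46 and 54.59 TPM in treated cells. Only the 24 h controls stood apart, and the treated libraries at 24 h differed little from both 6 h groups. GPT2, the mitochondrial alanine transaminase, also stood apart in the 24 h controls. It had 7.97 TPM on average in 6 h controls, 35.2 ± 0.915 TPM (SD, n = 3) in 24 h controls and 13.01 ± 0.873 TPM (SD, n = 3) in 24 h treated cells. CBS, which joins homocysteine to serine on the way to cysteine, stood at 47.1 ± 2.5 TPM (SD, n = 3) in 24 h controls and 21.9 ± 1.69 TPM (SD, n = 3) in treated cells, from 14.2 and 10.9 TPM at 6 h.

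The transporters differed in their course. SLC7A5, the light chain of the large neutral amino acid exchanger LAT1, had 47.9, 54.0 and 50.8 TPM in 6 h controls and 55.6, 51.4 and 46.5 TPM in 24 h controls. Treated cells had 63.9, 58.7 and 60.5 TPM at 6 h and 20.7, 19.7 and 18.9 TPM at 24 h. Here the control level stayed within the spread of its libraries and the treated level was below that of every other library. SLC6A9, the glycine transporter GlyT1, instead had 41.1 ± 4.93 TPM (SD, n = 3) in 24 h controls against 19.2 TPM at 6 h, while treated cells stood at 23.6 TPM at 6 h and 21.3 ± 2.32 TPM (SD, n = 3) at 24 h.

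GARS1, the glycyl-tRNA synthetase, had 135.9, 140.0 and 137.0 TPM in 6 h controls and 176.35, 172.97 and 175.32 TPM in 6 h treated cells. Its order turned at 24 h, with 273.8, 266.6 and 277.5 TPM in the controls against 149.7, 153.1 and 154.9 TPM in treated cells. The log2 difference was 0.34 at 6 h and -0.83 (SE 0.0299) at 24 h. CARS1, the cysteinyl-tRNA synthetase, stood at 153.1 ± 4.26 TPM (SD, n = 3) in 24 h controls and 85.7 ± 5.77 TPM (SD, n = 3) in treated cells, with 100.5 and 106.4 TPM at 6 h. GARS1 and SLC6A9 met the rule under neither quantile normalization nor median-of-ratios rescaling, and SLC7A5 not under the latter, while the other 5 genes met it under both.

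**Figure D2:**
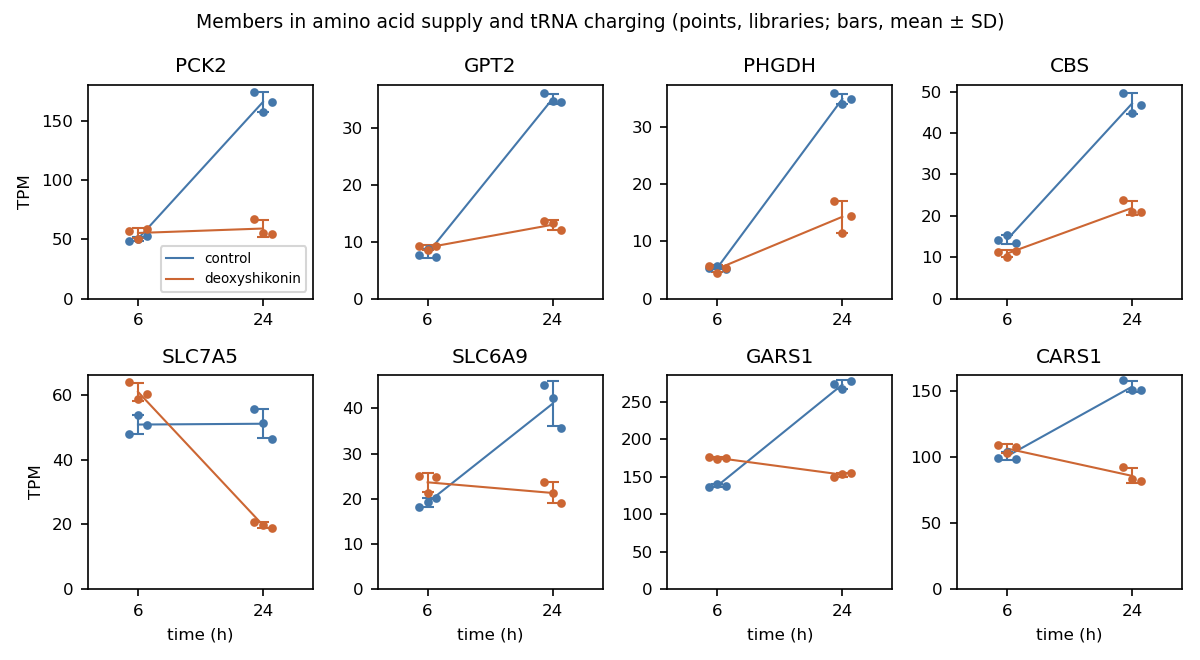
TPM (vertical axis, starting at 0) at 6 h and 24 h (horizontal axis) for the 8 members in amino acid supply and tRNA charging; points are libraries, lines join group means and bars are the SD over 3 libraries, blue for control and orange for deoxyshikonin. In 7 of the 8 panels the control line climbs while the treated line stays flatter or declines, and in SLC7A5 the control line is level and the treated line drops to 19.7 TPM.

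The wider list of amino acid and unfolded protein response genes was then examined. The rule did not use this list, but it was chosen with earlier results of these data known. Of its 30 genes, 28 were in the fit, and PHGDH and SLC7A5 were its members. At 24 h, 18 of the 28 were called lower in treated cells and 4 higher, where 18.1% and 32.2% of all genes were, and the list median was -0.45 against 0.09. At 6 h the direction was the opposite, with 21 called higher and 4 lower and a median of 0.70 against -0.20. Between these times 20 of the 28 were called higher in control cells (median 0.68, against -0.07 for all genes), and 19 were called lower in treated cells (median -0.54, against 0.16). The effect at 24 h was more negative than that at 6 h for 24 of the 28 by the interaction test, against 18% of all genes. These counts share control libraries between comparisons, and PHGDH and SLC7A5 contribute to them by choice.

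Among the genes of this list that were not members, PSAT1, the next enzyme of serine synthesis after PHGDH, showed the lowest value at 24 h. Its 6 h level was 65.0 ± 4.78 TPM (SD, n = 3) in controls against 101.7 ± 0.93 TPM (SD, n = 3) with treatment, or 0.64 log2 units higher (SE 0.0743; adjusted p = 1.07e-05 by limma). Its 24 h level was 325.7 ± 12.7 TPM (SD, n = 3) in controls against 111.3 ± 12.3 TPM (SD, n = 3) with treatment, a difference of -1.55 log2 units (SE 0.0743; adjusted p = 6.11e-08 by limma). Of all 11897 genes in the fit, 166 were called higher at 6 h and lower at 24 h, and of the 28 list genes 13 were. They included PSPH, which completes serine synthesis, with 0.87 and -0.84 log2 units, the mitochondrial folate enzyme MTHFD2 with 0.89 and -0.90, and the glutathione-degrading enzyme CHAC1 with 0.95 and -1.09. Asparagine synthetase, ASNS, had 0.76 and -0.46, and the leucine sensor SESN2 had 0.96 and -0.74. The cystine importer SLC7A11 had the widest swing, 4.08 at 6 h and -0.61 at 24 h, and its partner chain SLC3A2 had 2.21 and -0.49. SHMT2, the mitochondrial serine hydroxymethyltransferase, was called lower at both times, with -0.50 and -1.01.

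Genes for misfolded protein handling and stress signalling are also on the list. HSPA5, the main chaperone of the endoplasmic reticulum, was 2.36 log2 units higher at 6 h and 0.17 at 24 h, where it was not called (limma adjusted p = 0.0538). The stress transcription factors DDIT3 and ATF3 were called higher at both times, with 1.98 and 2.24 at 6 h and 0.57 and 0.62 at 24 h. ATF4 itself had no identifier with that symbol and is not analysed here. Under quantile normalization and median-of-ratios rescaling the list medians kept their signs at both times: 18 of the 28 were called lower at 24 h in each, and 21 and 22 were called higher at 6 h.

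**Figure D3:**
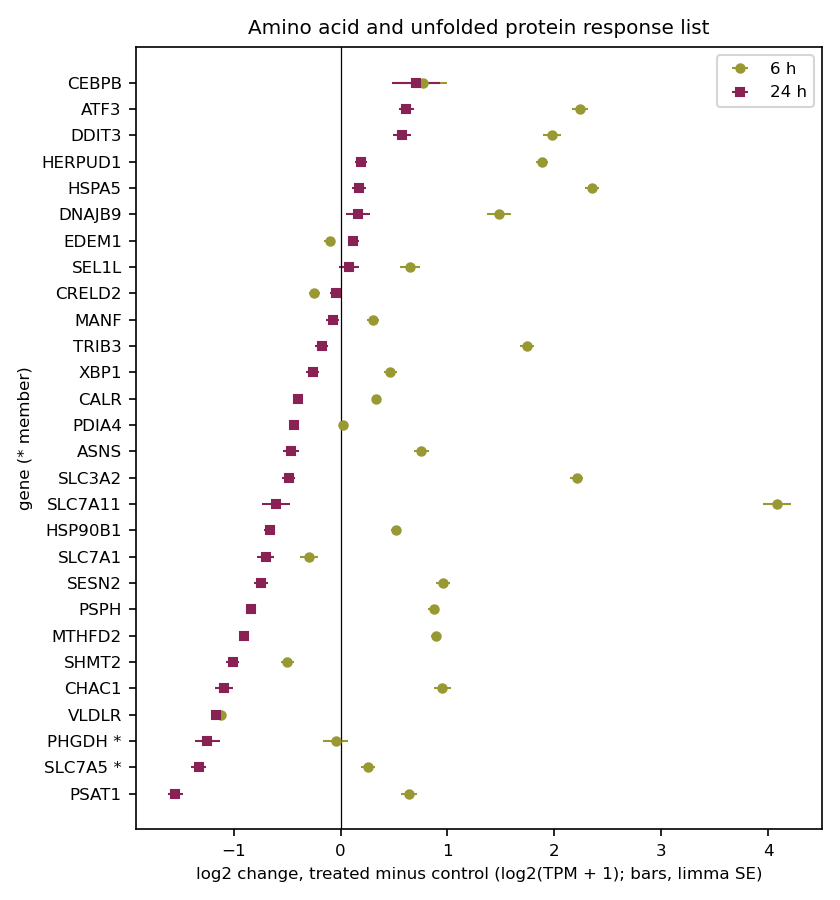
Log2 change, treated minus control on the log2(TPM + 1) scale, at 6 h (circles) and 24 h (squares) for the 28 genes of the amino acid and unfolded protein response list, sorted by the value at 24 h, with limma standard errors as bars. The members PHGDH and SLC7A5, marked with an asterisk, lie at -0.05 and 0.26 at 6 h, whereas PSAT1, CHAC1, MTHFD2 and PSPH lie to the right of 0 at 6 h and to the left at 24 h.

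With GARS1 and CARS1 among the members, the cytosolic aminoacyl-tRNA synthetases were counted as a family, a list drawn up after the members had been seen. Of 19 in the fit, 14 were called lower at 24 h and 3 higher, with a median of -0.46, where 18.1% and 32.2% of all genes were called lower and higher. At 6 h, 11 were called higher and 7 lower, with a median of 0.18, where 26.6% and 48.7% of all genes were. GARS1 and CARS1, chosen for this pattern, are among the 19. The seryl enzyme SARS1 had 307.0 ± 6.1 TPM (SD, n = 3) in 24 h controls and 177.6 ± 5.88 TPM (SD, n = 3) in treated cells, which is -0.79 log2 units (limma adjusted p = 4.86e-08), after 0.70 at 6 h. WARS1 had -0.83 after 0.51, and the threonyl enzyme TARS1 -0.59 after 0.52. The histidyl enzyme HARS1 went the other way, with 1.05 at 6 h and 0.66 at 24 h. Of the mitochondrial synthetases, 4 of 16 were called lower and 2 higher at 24 h, with a median of -0.13. In the serine, glycine and transsulfuration enzymes, also listed afterwards, 12 of 15 were called lower at 24 h (18.1% of all genes) and 1 higher. PHGDH and CBS are 2 of the 15. At 6 h, 9 were called lower (48.7% of all genes) and 4 higher (26.6% of all genes), with a median of -0.19. Lower calls at both times were found in 7 (1737 of all 11897 genes), and higher then lower in 4 (166 of all genes). CTH, which follows CBS in cysteine synthesis, had 1.94 at 6 h and -0.26 at 24 h (limma adjusted p = 0.0101).

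Cell division genes formed a second, differently shaped group. BUB1 is a kinase of the spindle checkpoint, MELK a kinase of proliferating cells, TRAIP a ubiquitin ligase that acts at stalled replication forks, and REEP4 clears endoplasmic reticulum from mitotic chromosomes. BUB1 had 22.0, 23.3 and 20.9 TPM in 6 h controls and 18.76, 18.31 and 19 TPM in 6 h treated cells. At 24 h controls had 11.07, 10.97 and 10.23 TPM and treated cells 4.25, 3.95 and 3.58 TPM. The level at 24 h was therefore below that at 6 h in both arms, and further below in treated cells. MELK stood at 63.0 TPM in 6 h controls, 48.6 TPM in 6 h treated cells, 42.2 ± 1.31 TPM (SD, n = 3) in 24 h controls and 16.7 ± 1.09 TPM (SD, n = 3) in 24 h treated cells. TRAIP had 10.8, 8.42, 5.29 ± 0.393 and 1.56 ± 0.25 TPM (SD, n = 3) in the same order. REEP4 had 44.7 TPM in 6 h controls and 43.8 TPM in 24 h controls, and in treated cells 51.0 TPM at 6 h and 24.7 TPM at 24 h.

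BUB1 was the only one of 39 mitosis genes in the fit to meet the rule. All 39 were called lower at 24 h (18.1% of all genes), with a median of -1.76 against 0.09 over all genes. All 39 were called lower at 6 h as well (48.7% of all genes), with a median of -1.48 against -0.20. Quantile normalization and median-of-ratios rescaling each left 38 called at 6 h. BUB1 had the smallest fall at 6 h of the 39, at -0.23, and the next were DLGAP5 at -0.46 and RACGAP1 at -0.46. None of the 38 DNA replication genes in the fit was a member, although 31 of them were called lower at 24 h (18.1% of all genes). At 6 h, 37 lay below the window of the rule, and the other one, GINS3, had 0.03 at 6 h and -0.40 at 24 h. Only 13 of the 38 reached -0.8 at 24 h.

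Members with a role in cilia numbered 4. MNS1, a protein inside the microtubules of motile cilia, had 14.3 TPM in 6 h controls, 10.8 TPM in 6 h treated cells, 9.01, 9.64 and 8.52 TPM in 24 h controls and 2.47, 3.30 and 2.74 TPM in 24 h treated cells. B9D1, a protein of the ciliary transition zone, had 44.8, 36.2 and 36.7 TPM in 24 h controls and 16.6, 18.7 and 16.6 TPM in treated cells. At 6 h it had 38.0 TPM in controls and 29.3 TPM in treated cells, and was already called lower. The treated libraries at 24 h were the lowest of the 12 for both genes. DRC3, of the regulatory complex of the axoneme, and PIERCE1, of ciliary microtubules, stood at 2.13 and 2.51 TPM in 24 h controls and at 0.64 and 0.90 TPM in treated cells. In a cilium list drawn up afterwards, 17 of 22 genes were called lower at 24 h (18.1% of all genes) and 0 higher, and 14 lower (48.7% of all genes) and 2 higher at 6 h. The 4 members are among the 22 and were chosen for being lower at 24 h.

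Calcium-binding and matrix proteins gave the most abundant members. S100A4, a small calcium-binding protein linked to motility, had 210.4, 224.1 and 213.6 TPM in 6 h controls and 175.6, 172.6 and 162.8 TPM in 6 h treated cells. The 24 h controls held 286.1, 265.8 and 290.5 TPM, and the 24 h treated cells 115.0, 99.7 and 79.0 TPM. The control mean at 24 h was 2.87 times the treated mean. S100A5, the highest member with a mean of 260.8 TPM, stood at 323.1 ± 14.6 TPM (SD, n = 3) in 24 h controls and 176.2 ± 9.90 TPM (SD, n = 3) in treated cells. It was already called lower at 6 h, with 297.4 TPM in controls and 246.3 TPM in treated cells. S100A4 and S100A5 are neighbours without overlap in the RefSeq gene order of assembly Sscrofa11.1, as are ARTN and ST3GAL3, among the 30 members whose symbol occurred once in that table. Whether the counting used strand is not given in the sources used here. Of 9 S100 genes in the fit, 7 were called lower at 24 h (18.1% of all genes), S100A4 and S100A5 among them by choice. S100A10 and S100A11 were called higher (32.2% of all genes). At 24 h, median-of-ratios rescaling left 7 lower and 0 higher, and quantile normalization 6 lower and 2 higher. At 6 h, 8 of the 9 were already called lower (48.7% of all genes) and 0 higher, with a median of -0.42. Median-of-ratios rescaling left 4 lower at 6 h, and quantile normalization 6.

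RCN1, a calcium-binding chaperone of the endoplasmic reticulum, stood at 183.2 ± 4.92 TPM (SD, n = 3) in 24 h controls and 95.4 ± 5.45 TPM (SD, n = 3) in treated cells. FBLN2, the matrix protein fibulin-2, stood at 36.1 ± 3.82 TPM (SD, n = 3) and 19.4 ± 2.92 TPM (SD, n = 3). At 6 h RCN1 had 115.7 TPM in controls and 91.7 TPM in treated cells, and FBLN2 had 36.4 and 28.6 TPM. Both were already called lower at 6 h. Fibroblast markers moved the same way: the summed TPM of 9 such genes was 7.97 to 8.75 in 24 h controls and 3.41 to 4.16 in treated cells, with COL1A1 at 2.41 to 7.94 TPM and DCN, LUM and PDGFRA at most 0.14 TPM in any library. Their part in the FBLN2 result was not tested.

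Proteins of the epithelial surface made up another group. SPINK5 encodes an inhibitor of kallikrein proteases and KLK14 encodes such a kallikrein. SPINK5 had 8.47, 10.3 and 9.16 TPM in 6 h controls and 7.68, 8.16 and 8.12 TPM in 6 h treated cells. At 24 h controls had 29.2, 29.9 and 29.5 TPM and treated cells 8.49, 8.03 and 7.29 TPM. Treated cells at 24 h thus lay at the level of 6 h, and the control mean was 3.72 times as high. KLK14 was low throughout, with 4.54, 3.76 and 5.11 TPM in 24 h controls and 0.97, 0.39 and 1.30 TPM in treated cells. PKP1, the desmosome protein plakophilin-1, had 18.96 ± 1.84 and 9.29 ± 1 TPM (SD, n = 3), and the tetraspanin TSPAN1 had 8.66 ± 0.733 and 3.93 ± 0.136 TPM (SD, n = 3). BPIFB6 had 2.49 and 0.86 TPM. At 6 h it already had 0.67 TPM in controls and 0.32 TPM in treated cells, without overlap, a ratio of 2.12. TSPAN1 was already called lower at 6 h, with 4.79 TPM in controls and 3.90 TPM in treated cells. With a pseudocount of 0.1 BPIFB6 and KLK14 did not meet the rule. None of the 30 junction genes in the fit was a member; 7 were called lower and 9 higher at 24 h, close to the 18.1% and 32.2% of all genes.

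Enzymes of glycans and lipids gave 3 members. OGT, which places O-linked N-acetylglucosamine on nuclear and cytosolic proteins, had 54.6, 54.5 and 54.5 TPM in 6 h controls and 55.5, 52.1 and 56.2 TPM in 6 h treated cells. The 24 h controls held 113.2, 114.9 and 103.7 TPM, and the 24 h treated cells 57.3, 60.6 and 56.0 TPM. The 24 h mean was 2.03 times the 6 h mean in controls and 1.06 times in treated cells. The sialyltransferase ST3GAL3 had 23.3 ± 1.84 and 10.4 ± 1.49 TPM (SD, n = 3) in 24 h controls and treated cells, and the ceramide synthase CERS4 had 50.9 ± 0.544 and 28.2 ± 2.63 TPM (SD, n = 3). CERS4 had 21.2 TPM in treated cells at 6 h, so its treated level was higher at 24 h than at 6 h.

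The remaining members with a symbol have no shared role. NR4A1, an immediate early nuclear receptor, had 13.7 ± 0.874 TPM (SD, n = 3) in 24 h controls and 6.95 ± 0.953 TPM (SD, n = 3) in treated cells. MRPL10, of the mitochondrial ribosome, had 22.8 ± 0.125 and 11.0 ± 1.31 TPM (SD, n = 3), ASTN2 had 11.9 ± 1.13 and 4.95 ± 0.0611 TPM (SD, n = 3), and ARTN, a ligand of the GDNF family, had 14.1 ± 0.861 and 7.66 ± 0.931 TPM (SD, n = 3). At 6 h ASTN2 was already called lower, with 6.45 TPM in controls and 4.70 TPM in treated cells, while MRPL10 and ARTN were called higher. Of the 14 members without a symbol, 4 did not overlap. ENSSSCG00000038825 had 2.07 TPM on average in 6 h controls, 28.5, 25.6 and 25.9 TPM in 24 h controls and 6.66, 6.20 and 6.61 TPM in 24 h treated cells, and ENSSSCG00000047605 had 187.1 ± 3.27 TPM (SD, n = 3) in 24 h controls and 99.6 ± 5.21 TPM (SD, n = 3) in treated cells. At 6 h ENSSSCG00000047605 had 92.9 TPM in controls and 70.7 TPM in treated cells, and was already called lower.

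**Figure D4:**
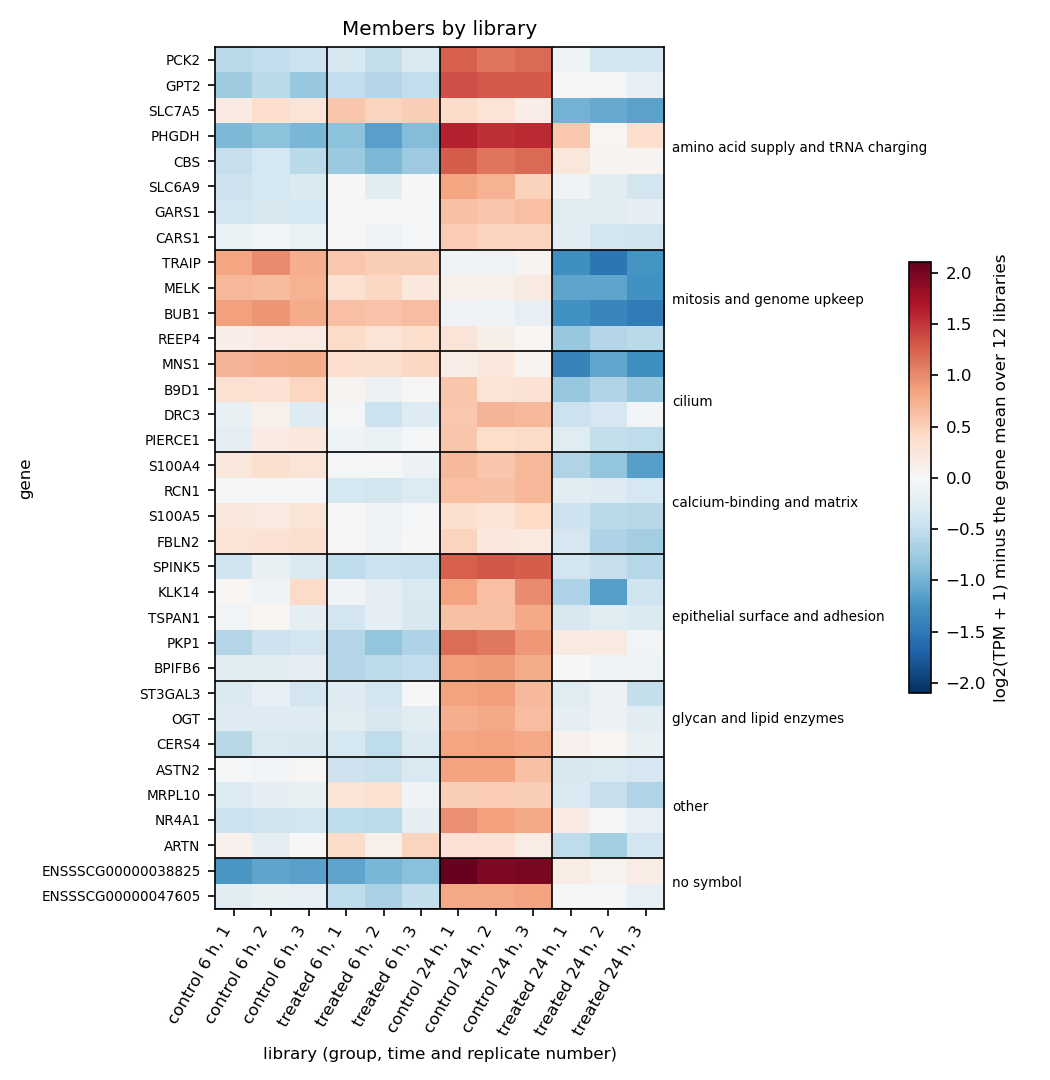
Log2(TPM + 1) minus the gene's mean over the 12 libraries (colour) for 34 of the 36 members without overlap at 24 h, in rows grouped by role, with libraries in columns; the 2 members without a symbol and under 5 TPM on average are left out. The 24 h control columns are the reddest block for most rows. Among the rows that are bluest in the 24 h treated columns are SLC7A5, the division genes, MNS1, B9D1, S100A4, S100A5 and FBLN2.

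A difference at 24 h can go with a higher control level or a lower treated level, so the course within each arm was read next. These comparisons share libraries with the rule, which favours high 24 h controls and low 24 h treated cells, so the counts are a description. In control cells 29 of the 55 members were called higher at 24 h than at 6 h (22.2% of all genes) and 4 lower (34.2% of all genes). In treated cells 18 were called lower at 24 h (28.2% of all genes) and 10 higher (46.8% of all genes). In 12 members (3.08% of all genes) control cells were called higher and treated cells were not called, among them PCK2, OGT, SPINK5, RCN1, SLC6A9 and ST3GAL3. In 10 members, or 18.2% of the 55 against 16.5% of all genes, both arms were called higher, with the smaller gain in treated cells for PHGDH, GPT2, CBS, PKP1, CERS4 and NR4A1. In 7 the arms were called in opposite directions, among them GARS1, CARS1, S100A4 and MRPL10, against 2.62% of all genes. In another 7 (9.08% of all genes) control cells were not called and treated cells were lower, among them SLC7A5, B9D1, REEP4, S100A5 and FBLN2. Both arms were lower in 4 (16.5% of all genes), which were BUB1, MELK, TRAIP and MNS1, and the other 15 were called in neither (13.8% of all genes). Among the 36 members without overlap, the sum of the log2 time changes in both arms was positive in 25 and negative in 11. Of these 36, 9 were called higher over time in treated cells and 4 were called lower in controls. The sum therefore does not set a control gain against a treated loss in every member. No share of all genes stands beside these counts.

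To see the difference at 24 h in libraries that had no part in the choice, the rule was applied without the 4 libraries of each replicate number in turn, and the difference was then read in the 4 libraries left out. The choice gave 59, 61 and 60 genes. Their median difference in the libraries left out was -0.77, -0.91 and -0.88 log2 units, smaller than the -1.09, -1.13 and -1.10 in the libraries that chose them. The median of all genes in the same libraries was 0.02, 0.08 and 0.14. At most -0.8 was reached by 27, 40 and 35 of the genes, or by 3.45%, 3.92% and 3.98% of all genes. The 6 h window was met by 43, 41 and 44 of them in the libraries left out, and both limits together by 21, 24 and 27. Genes above 0 in all libraries used for the choice accounted for 26 of the 27, 37 of the 40 and 30 of the 35, while those with a listed zero had a median of 0 in each case. The 8 amino acid and tRNA members were picked with all 12 libraries, so the libraries left out had a part in picking them. These genes met the rule in 23 of 24 possible instances, and their difference in the libraries left out ran from -1.59 to -0.77. Low values there are partly fixed by that first choice. Each such value compares 1 treated with 1 control library and has no test.

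**Figure D5:**
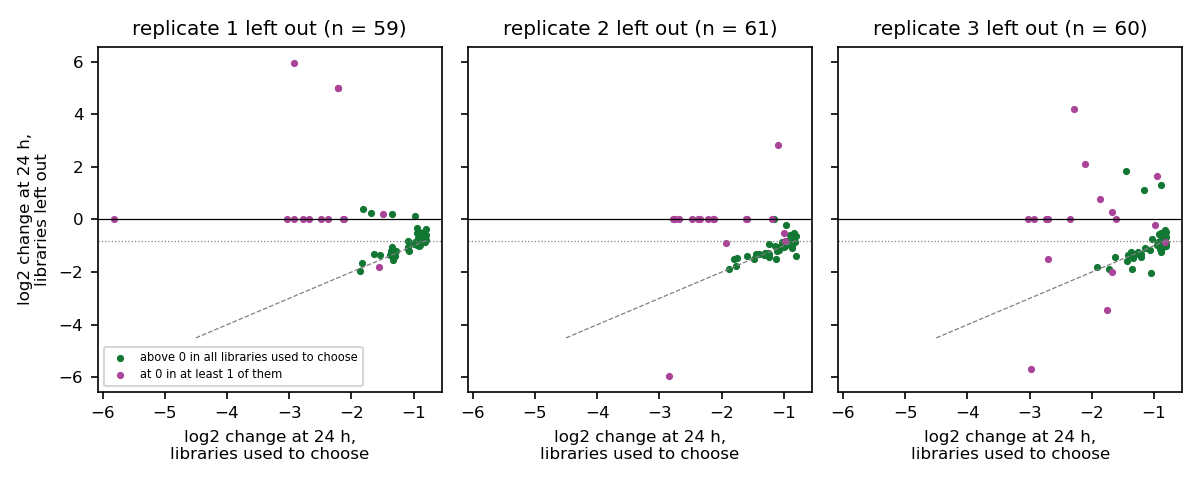
For each replicate number left out, the log2 change at 24 h in the libraries used to choose the genes (horizontal axis) is set against the change in the libraries left out (vertical axis), on the log2(TPM + 1) scale; each point is a gene, the dashed line marks equal values, the solid line 0 and the dotted line -0.8. Green points, genes above 0 in all libraries used, lie mostly near the dashed line, with medians of -0.84, -0.99 and -0.96, whereas purple points, genes with a listed zero, lie mostly on 0.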

How the data were processed

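Gene expression was measured by RNA sequencing of 12 libraries of IPEC-J2 cells, 3 per group, grouped and numbered by their titles, with the dose as the series design states it. The authors deposited TPM values per gene, not counts; fastp, HISAT and RSEM are named in the submitters' processing notes, with their versions, the genome build and the annotation not given in the sources used here. Each column summed to 1000000 within rounding, so sequencing depth is unknown and no counting interval or floor was possible. Symbols came from a table that matched 15029 of 32518 identifiers. No coordinates or sequences are printed, since the build is not named.

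Values were analysed as log2(TPM + 1), which understates changes of low genes. The 11897 identifiers with a mean of at least 1 TPM (11366 Ensembl genes and assembled loci) entered a limma fit (version 3.58.1, R 4.3.3; all 4 groups in 1 fit, eBayes with a trend, Benjamini-Hochberg adjustment over all genes tested, threshold 0.05). The procedure was tested on simulated data. The members and gene lists were chosen with earlier results of these data known. The lists of tRNA synthetases, serine enzymes, cilium genes and S100 genes, and the roles of the members, were drawn up after the members had been seen. Genes were named by a rule: among members, the 15 with the lowest difference at 24 h (mean of at least 5 TPM, no overlap), the 10 with the highest 24 h control level, those in a list and those nearest the limits; all other members with a symbol, and the list genes that are no members, were named after their values were seen. Alternatives were other pseudocounts, filters, scalings, limits and fits, the replicate block, and leaving out each library.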

Additional observations from a re-analysis of the deposited data

Results flagged for a closer look

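The effect of deoxyshikonin at 24 h differed from that at 6 h by the interaction test (limma, Benjamini-Hochberg adjusted p-value under 0.05) in 22 list genes that were named and were not members. The interaction is the log2 effect at 24 h minus that at 6 h. In 12 genes the effect turned from positive to negative, with an interaction of -4.69 for SLC7A11, -2.70 for SLC3A2, -2.20 for CTH, -2.19 for PSAT1, -2.04 for CHAC1, -1.79 for MTHFD2, -1.71 for PSPH, -1.70 for SESN2, -1.49 for SARS1, -1.34 for WARS1, -1.22 for ASNS and -1.11 for TARS1. In 4 genes a positive effect was smaller at 24 h, with -2.19 for HSPA5, -1.62 for ATF3, -1.40 for DDIT3 and -0.39 for HARS1. In another 4 a negative effect was larger at 24 h, with -1.36 for DLGAP5, -0.72 for FN1, -0.61 for RACGAP1 and -0.51 for SHMT2. S100A11 with 0.64 and S100A10 with 0.49 went from a negative to a positive effect. Apart from FN1 and WARS1, which lie next to the limits of the rule, these genes were named after their values were seen. Over all 11897 genes in the fit, 2142 passed the interaction test with a negative value and 5355 with a positive one. Passing it was thus common, and nothing is read from the number of genes flagged. The interactions of the members themselves follow from the rule and are not listed.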

How the results depend on the processing

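The number of members depended on the scaling: it was 55 with TPM as deposited, 108 after quantile normalization (51 shared) and 92 after median-of-ratios rescaling (50 shared); ARTN, GARS1, MRPL10 and SLC6A9 were in neither, and SLC7A5 was lost under the latter. The cause was not tested. With stricter limits it was 33 for a difference of at most -1 at 24 h and 30 for a window of -0.2 to 0.2 at 6 h. A pseudocount of 0.1 gave 75 (48 shared), no filter on low values 61 and a minimum mean of 5 TPM gave 37. Members lost with the pseudocount of 0.1 included BPIFB6, KLK14, MNS1, ASTN2 and MRPL10. Across the 12 fits without 1 library it ranged from 50 to 61, and 20 of the 55 members were chosen in all 12. Members chosen without a replicate number had a median difference of -0.91 to -0.77 in the libraries left out. The members called at 24 h ranged from 33 to 39 without 1 library, against 39, those called between treated times from 26 to 28, against 28, and those called between control times from 28 to 34, against 33. The amino acid list had 17 or 18 genes called lower at 24 h under every alternative run. Without the 10 members listed at 0 outside 24 h controls, a setting added once the data had been seen, these counts were 38, 28 and 32. The difference at 24 h of 27 named members can move under 9 of the settings, and of these 243 values 0 changed sign and 26 moved by more than 1 SD.

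Same-numbered libraries deviated together only weakly, with a correlation of more than 0.1 in 1 of 12 pairs (range -0.115 to 0.109). Still, 8 of 12 correlated best with their own number, so whether the replicate numbers pair the libraries cannot be told from these values. With the replicate block 39 members were called at 24 h, 29 between treated times and 35 between control times.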

Other observations

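The table also holds 610 assembled loci without an Ensembl identifier, which the rule left out. Of those with a mean of at least 1 TPM, 5 met the same limits at 6 h and 24 h, and the libraries of 3 of the 5 did not overlap at 24 h. The most abundant of these 3 had 202.97, 263.45 and 204.8 TPM in 24 h controls and 134.8, 144.67 and 77.14 TPM with treatment, which is -0.95 on the log2(TPM + 1) scale. The loci carry no gene name in the files.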
